A study of Rattus norvegicus with 9 samples.

Results

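Growth factors of the FGF, PDGF, VEGF and EGF families, with their receptors, were followed in cultured Sertoli cells of the rat, which surround and feed the germ cells inside the testis tubule. Members were found by name, as the genes whose symbol on the array marks them as an FGF, PDGF, VEGF, EGF, neuregulin, HGF or angiopoietin ligand or as a receptor of these families. This gave 66 genes with 86 probes, of 35352 gene names and 41012 probes. Of the 66, 16 were receptors, 39 were secreted ligands and 11 shared a name pattern or a fold with them without being either, such as the angiopoietin-like genes and the FGF homologues that stay inside the cell. The rule itself uses names and no measured value.

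These ligands bind receptor tyrosine kinases at the cell surface. A bound receptor pairs with a second one, phosphorylates itself and starts the Ras and MAP kinase relay, PI3 kinase and phospholipase C gamma, and FGFs need heparan sulphate chains beside the receptor. In the testis, FGF and PDGF signals are known from cord formation and from the mesenchymal cells around the tubule, VEGF and angiopoietin signals from its vessels, and EGF-like ligands and neuregulins from the exchange between Sertoli cells, germ cells and interstitial cells.

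The cells came from testes of rats aged 5, 12 and 60 days. All 9 cultures were kept for 4 days in a defined growth factor medium and, for the last 11 h, exposed to pulsed hormone, testosterone at 1e-07 M with oFSH at 50 ng/ml, so no culture without hormones was among them, and the labels do not name the growth factors of the medium. Each age was measured on 3 one-colour arrays, which share 3 slides by replicate number, with the same position on the slide for all arrays of an age, so age and slide position cannot be told apart. Whether replicates were separate animals or cultures is not stated, so a p-value here reflects the spread of these samples alone.

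The share of probes well above background was 49.1% to 63.0% per array, the 75th percentile of an array lay between 149 and 435 intensity units, and no spot of a member was saturated. With 3 arrays per age, their number sets how precise a value is. All 16 Sertoli cell markers were tested and 13 rose from 5 to 12 days, with Gata1 not above background on any array at 5 days. Markers of spermatocytes rose too (8, 10 and 11 of 11 in the comparisons of 12 with 5, 60 with 12 and 60 with 5 days), and 10 of 11 spermatid markers rose by 60 days. The part of such cells in the results below was not tested, and in RNA of whole cultures fewer cells of a type and less RNA per cell cannot be told apart.

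The array reads each gene through probes of 60 bases, and the sequences of some of them are given below, 5′ to 3′. The calls defined below come from the brightest probe of a gene and not from a second probe. The first pair is shown because Vegfb was called and Vegfa was not, while their probes hold the longest run of bases shared by probes of different members, 18 bases in capitals. Among 3630 pairs of probes from different members, 3 shared a run of 12 or more. The next probes are those behind the largest rise against 5 days (Fgf18), a fall to background (Vegfd), an FGF receptor (Fgfr1), and second probes that repeat a gene elsewhere in its transcript (Fgfr2, Nrg1 and Angpt2). Each has a reading frame without a stop codon.
Vegfa, second probe: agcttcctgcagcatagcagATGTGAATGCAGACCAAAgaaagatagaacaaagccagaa
Vegfb, first probe: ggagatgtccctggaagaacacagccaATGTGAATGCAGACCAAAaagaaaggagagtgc
Fgf18: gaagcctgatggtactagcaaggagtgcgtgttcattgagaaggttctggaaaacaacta
Vegfd: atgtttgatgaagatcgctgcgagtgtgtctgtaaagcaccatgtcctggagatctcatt
Fgfr1: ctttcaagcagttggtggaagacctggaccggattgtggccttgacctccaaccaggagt
Fgfr2, second probe: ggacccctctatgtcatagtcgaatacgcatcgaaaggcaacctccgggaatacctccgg
Nrg1, first probe: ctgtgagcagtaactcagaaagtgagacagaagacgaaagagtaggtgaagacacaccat
Nrg1, second probe: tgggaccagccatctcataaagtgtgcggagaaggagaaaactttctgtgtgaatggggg
Angpt2, second probe: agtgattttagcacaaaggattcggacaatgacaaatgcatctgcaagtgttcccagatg

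In the rn4 build, the Vegfa probe lies at chr9:10528580-10528965 on the plus strand and the Vegfb probe at chr1:209659244-209659672 on the minus strand. Both positions are longer than the probe, so their bases are split over the genome, as were those of 26 of the 84 member probes with a position. Fgfr1 is read at chr16:70870147-70870312 (minus), Vegfd at chrX:50830976-50831035 (minus) and the second Fgfr2 probe at chr1:189499698-189501683 (minus). The Nrg1 probes lie at chr16:64124972-64125031 and chr16:64093883-64093942 (plus) and the second Angpt2 probe at chr16:75939239-75939298 (plus). For the Fgf18 probe the files list no position. Exons are not named, since no rn4 annotation was used here.

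Each level given is the log2 of a signal over its array's 75th percentile, listed for replicates 1, 2 and 3, and are compared within a gene and never between genes. Differences are log2 values, later minus earlier age, with the standard error of a limma model of all 9 arrays (n = 3 per age). Calls, and the words rose and fell, stand for a Benjamini-Hochberg adjusted p under 0.05 over the 22453 genes tested. A gene was tested when a probe was well above background on 2 or more of the 3 arrays of some age, and 37 of the 66 members passed this filter. Of those, 27 passed at every age, 7 at 2 ages and 3 (Angpt1, Fgf7 and Vegfd) through the 5-day arrays alone, so that a fall was built into their selection. In the same way Flt4, let through by the 12- and 60-day arrays, was favoured to rise against 5 days. Fgf12, Flt1 and Pdgfd, let through by the 5- and 12-day arrays, were favoured to fall by 60 days. Angpt2, let through by the 5- and 60-day arrays, was favoured to be lowest at 12 days.

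The members' main movement was a loss of receptor signal by 60 days. Of the 10 receptors tested, 9 were lower at 60 than at 5 days and 1, Flt4, was higher; among the 20 secreted ligands tested, 8 were lower, 2 higher and 10 not called. Over all 37 members, 3 rose and 19 fell from 5 to 60 days, where 17.3% of all genes tested rose, 18.1% fell and 35.4% were called in either direction. These counts include genes whose direction the filter favoured. They are Flt4 for a rise, and the receptor Flt1, the ligands Angpt1, Fgf7 and Vegfd, and Fgf12 for a fall. From 5 to 12 days 3 rose and 8 fell, against 6.14% and 6.34% of all genes (12.5% in either direction). Here the filter favoured Flt4 among the rises and Angpt1, Angpt2, Fgf7 and Vegfd among the falls. From 12 to 60 days 2 rose and 14 fell, against 12.3% and 13.1% of all genes (25.3% in either direction), with the rise of Angpt2 and the falls of Fgf12 and Flt1 favoured. The moderated F-test over the 3 ages called 25 members, against 36.7% of all genes. The median difference of the members was -0.61, -0.82 and -2.03 in the comparisons of 12 with 5, 60 with 12 and 60 with 5 days, beside 0.05, -0.16 and -0.09 for all genes. These 3 comparisons share arrays, so their values stand side by side and are not independent of each other.

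The arrays of both ages did not overlap for 21 of the 37 members between 5 and 12 days (28.6% of all genes), for 19 between 12 and 60 days (40.7%) and for 28 between 5 and 60 days (47.4%). Among the 27 members above background on 2 or more arrays at every age, 2 rose and 4 fell from 5 to 12 days. From 12 to 60 days 1 of the 27 rose and 12 fell, and from 5 to 60 days 1 rose and 14 fell. Of all genes tested, whatever the ages they passed at, 17.3% rose and 18.1% fell from 5 to 60 days. The share among all genes above background at every age was not counted, so the 27 have no like background here. All 49 calls of members had the same direction on each of the 3 slides. Scaled to spike-in controls in place of the 75th percentile, the median of all genes shifted to -1.25, 0.79 and -0.43, and all genes split into 92 rises and 2132 falls at 12 against 5 days, 2617 and 390 at 60 against 12 days and 1652 and 2448 at 60 against 5 days, in place of 1379 and 1423, 2753 and 2935, and 3885 and 4059. The members then had 0 rises and 13 falls, 1 and 5, and 2 and 19, and the 19 members lower at 60 than at 5 days were the same genes. A rise or fall here is therefore meant against the bulk of the genes on an array.

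**Figure D1:**
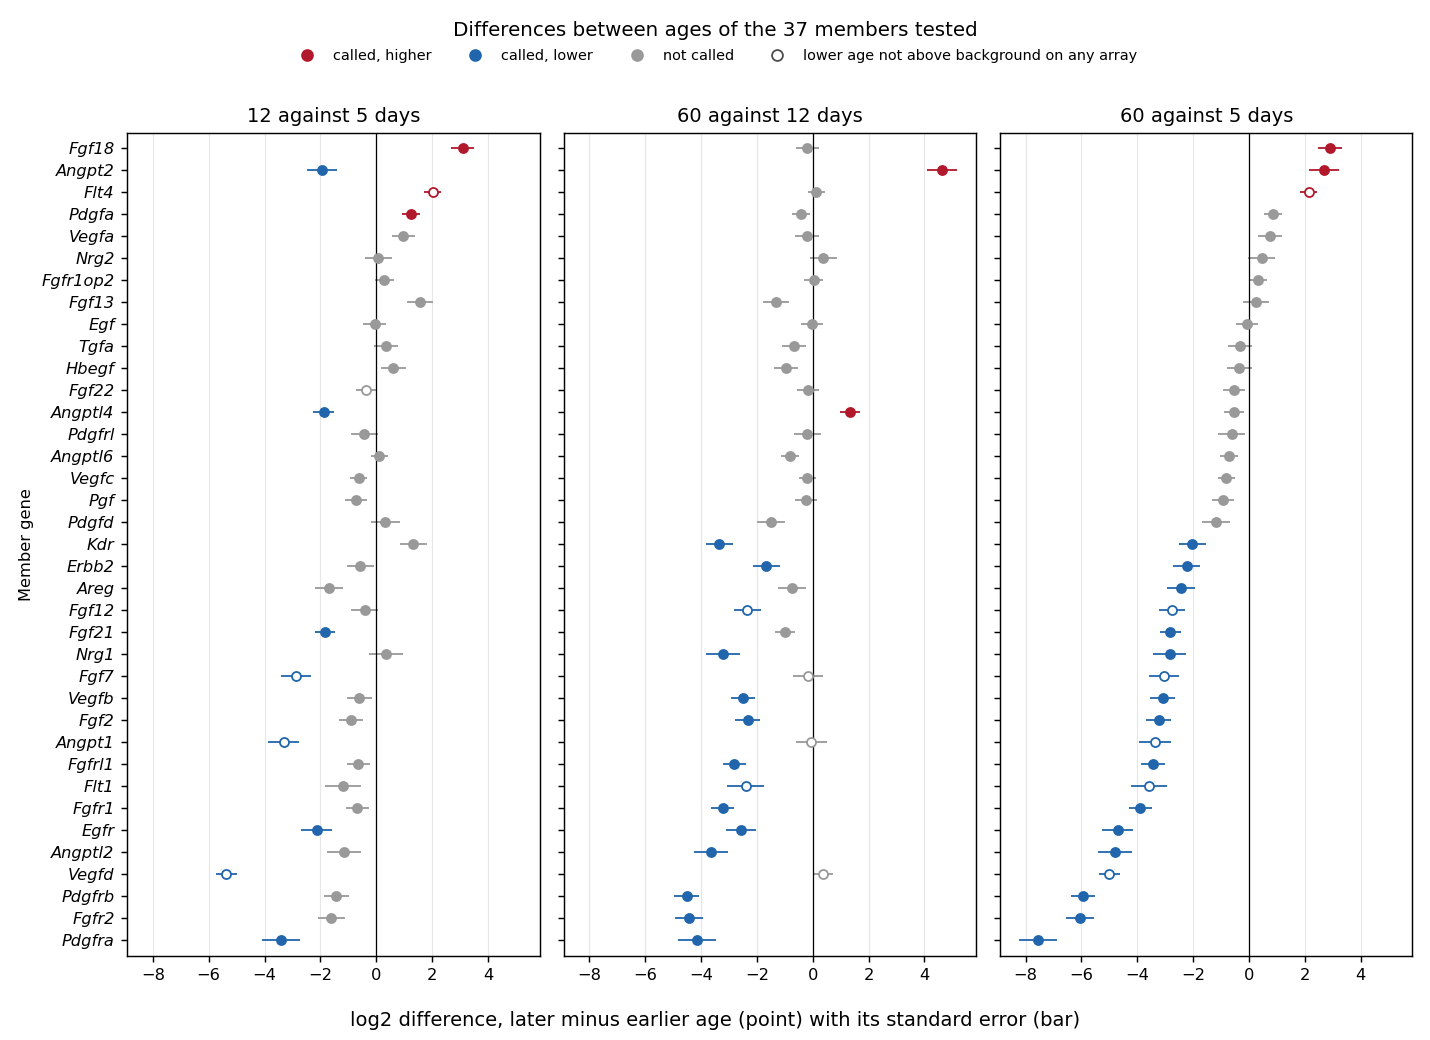
Differences between ages for the 37 members tested, ordered by the comparison of 60 with 5 days; points are log2 differences (later minus earlier age), bars are standard errors, colours mark calls and open points mark genes whose lower age had no array above background. In the comparison of 60 with 5 days, 19 points are called below 0, from Kdr at -2.03 to Pdgfra at -7.56, and 3 above it.

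Both PDGF receptors fell from 5 to 60 days, and Pdgfra had the largest fall of the 37 members tested. Pdgfra, the receptor of mesenchymal cells that binds PDGF-A and other PDGF chains, stood at 6.46, 6.10 and 5.45 at 5 days, at 2.62, 2.90 and 2.24 at 12 days and at 0.29, -1.98 and -2.97 at 60 days. The ages did not overlap, and the 60-day array of replicate 1 lay above the other two. Pdgfra fell by 3.42 ± 0.69 from 5 to 12 days (limma adjusted p = 0.00798), by 4.14 ± 0.69 from 12 to 60 days (0.00123) and by 7.56 ± 0.69 from 5 to 60 days (1.15e-05), which is a 188-fold lower signal. On slides 1, 2 and 3 the last difference was -6.17, -8.08 and -8.42. Without replicate 2 the fall from 5 to 12 days was not called (adjusted p = 0.0907).

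Pdgfrb, which marks pericytes and smooth muscle-like cells and binds PDGF-B, stood at 4.61, 4.58 and 4.79 at 5 days, at 2.84, 3.11 and 3.70 at 12 days and at -0.30, -2.003 and -1.55 at 60 days. Here too each age lay below the one before on every array. Pdgfrb fell by 4.50 ± 0.45 from 12 to 60 days (adjusted p = 4.94e-05) and by 5.94 ± 0.45 from 5 to 60 days (3.35e-06). From 5 to 12 days the difference of -1.44 ± 0.45 was not called (adjusted p = 0.0618), and was with the slide as a block (0.0448), which compares arrays within slides.

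Markers of peritubular myoid cells and fibroblasts moved with these receptors: 5, 9 and 11 of 14 fell in the comparisons of 12 with 5, 60 with 12 and 60 with 5 days, and 0 rose. Their summed level (log2 of the sum of scaled signals) ran from 9.02 to 9.95 at 5 days, from 8.38 to 8.87 at 12 days and from 5.48 to 7.87 at 60 days, where the array of replicate 1 was the highest, as it was for Pdgfra. Among these markers Thy1 was not above background on any array at 12 or 60 days. Markers of other cells fell from 5 to 12 days as well: 8 of 11 for macrophages, 5 of 6 for duct epithelium and 3 of 7 for Leydig cells, of which 1 rose. Of all genes tested, 6.14%, 12.3% and 17.3% rose and 6.34%, 13.1% and 18.1% fell in the 3 comparisons. From 12 to 60 days 4 macrophage markers rose and 0 fell. Of the duct epithelium markers 3 rose and 2 fell, and of the Leydig markers 1 rose and 2 fell. From 5 to 60 days 7 macrophage, 3 duct epithelium and 4 Leydig markers fell, with 1 macrophage and 1 Leydig marker higher. The part of these cells in the values of Pdgfra, Egfr, Vegfd, Fgf7, Angpt1 and the other members was not tested.

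Of the PDGF ligands, Pdgfa and Pdgfd were tested, and neither was called from 12 to 60 or from 5 to 60 days in the limma model that defines the calls here. Pdgfa, the chain that Sertoli cells are known to make during development, stood at 1.79, 2.16 and 2.04 at 5 days, at 3.37, 3.15 and 3.24 at 12 days and at 2.85, 3.28 and 2.40 at 60 days. The 5-day arrays were the lowest. Pdgfa rose by 1.25 ± 0.32 from 5 to 12 days (limma adjusted p = 0.0286). That call was lost without any of the 3 replicate numbers (adjusted p = 0.197, 0.166 and 0.131), and the spike-in scale gave a difference of -0.04. At 60 days Pdgfa was 0.84 ± 0.32 above 5 days without a call (adjusted p = 0.0666), and was called with the slide as a block (0.0455). Quantile normalization (0.0311) and array weights (0.0269) gave that call too, as did leaving out the 60-day array of replicate 3 (0.0482). Pdgfd, a ligand of the beta receptor, differed by -1.50 ± 0.51 from 12 to 60 days (adjusted p = 0.0528, and 0.0139 with the slide as a block), and by -1.18 ± 0.51 from 5 to 60 days (0.0976, and 0.0305 with the block). Array weights gave a call for each (adjusted p = 0.00845 and 0.0089), and leaving out replicate 3 gave a call from 12 to 60 days (0.038). Pdgfb was not above background on any array, and Pdgfc was on 1, at 12 days.

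**Figure D2:**
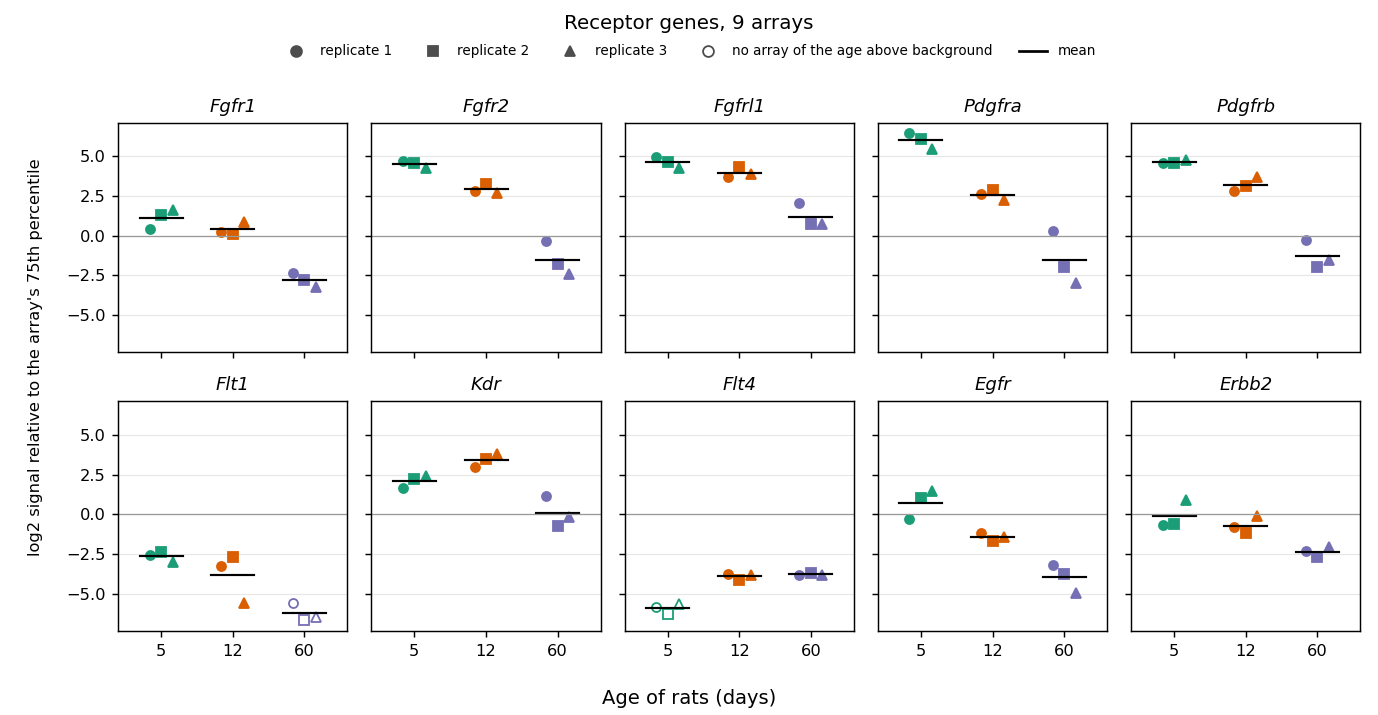
Levels of the 10 receptor genes tested, on each of the 9 arrays; the vertical axis is the log2 signal relative to the array's 75th percentile, colours mark ages, symbols mark replicates, lines mark means of 3 arrays, and open symbols mark ages with no array above background. The 60-day arrays lie below the 5-day arrays in all panels other than Flt4, where the 5-day arrays were not above background.

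The 3 FGF receptors tested, Fgfr1, Fgfr2 and Fgfrl1, fell from 12 to 60 days as well. Fgfr2, the receptor for FGF7, FGF10 and, in another splice form, FGF9 and other ligands, stood at 4.72, 4.59 and 4.26 at 5 days, at 2.80, 3.25 and 2.68 at 12 days and at -0.32, -1.81 and -2.43 at 60 days. The ages did not overlap. Fgfr2 fell by 4.43 ± 0.49 from 12 to 60 days (limma adjusted p = 9.52e-05) and by 6.04 ± 0.49 from 5 to 60 days (5.54e-06), a 65.9-fold lower signal. The difference from 5 to 12 days, -1.61 ± 0.49, was not called (adjusted p = 0.0573), and was with the slide as a block (0.0252).

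Of the 4 Fgfr2 probes on the array 2 passed the filter. The dimmer one, printed above, differed by -1.31, -1.52 and -2.83 in the 3 comparisons, with adjusted p = 0.175, 0.0703 and 0.00217 in a limma fit of every probe, but it was not above background on any array at 60 days, where its level is only bounded. The third probe was above background on 1 array of each age and the fourth on none.

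Fgfr1, the most widely expressed FGF receptor, stood at 0.40, 1.27 and 1.62 at 5 days, at 0.26, 0.11 and 0.89 at 12 days and at -2.36, -2.79 and -3.24 at 60 days. The arrays of 5 and 12 days overlapped, and those of 60 days lay below both. Fgfr1 fell by 3.21 ± 0.41 from 12 to 60 days (adjusted p = 0.000245) and by 3.90 ± 0.41 from 5 to 60 days (3.21e-05), while the difference from 5 to 12 days was -0.68 ± 0.41 (0.377). With the spike-in scale the fall from 12 to 60 days was not called (adjusted p = 0.0637). A second Fgfr1 probe was not above background on any array.

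Fgfrl1, a receptor of the family that lacks the kinase, stood at 4.97, 4.64 and 4.24 at 5 days, at 3.70, 4.36 and 3.86 at 12 days and at 2.04, 0.71 and 0.75 at 60 days. Again the 60-day arrays stood apart and the younger ages overlapped. Fgfrl1 fell by 2.80 ± 0.42 from 12 to 60 days (adjusted p = 0.000661, and 0.158 on the spike-in scale) and by 3.45 ± 0.42 from 5 to 60 days (8.76e-05). Fgfr3 was not above background on any array and Fgfr4 was on 1, at 5 days, so no difference is given for either. Their levels ran from -6.58 to -4.87 and from -6.92 to -3.80 over the 9 arrays.

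Most secreted FGFs were not measured above background: 5 of 18 passed the filter. Fgf18, known from bone, cartilage and lung development and from the ovary, stood at -1.80, -1.78 and -0.88 at 5 days, at 1.83, 1.01 and 1.97 at 12 days and at 0.86, 1.63 and 1.77 at 60 days. The 5-day arrays were lowest, and the 12- and 60-day arrays overlapped. Fgf18 rose by 3.09 ± 0.42 from 5 to 12 days (limma adjusted p = 0.00082) and was 2.90 ± 0.42 above 5 days at 60 days (0.00027), an 8.51-fold and a 7.49-fold higher signal. With the spike-in scale the first rise was 1.79 and not called (adjusted p = 0.165).

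Fgf2, a ligand without a signal peptide that acts on many mesenchymal cells, stood at -0.69, -0.47 and -0.61 at 5 days, at -1.34, -1.58 and -1.57 at 12 days and at -2.73, -4.29 and -4.45 at 60 days. Each age lay below the one before. Fgf2 fell by 2.32 ± 0.44 from 12 to 60 days (adjusted p = 0.00277) and by 3.23 ± 0.44 from 5 to 60 days (0.000185), with -0.91 ± 0.44 from 5 to 12 days (0.244). The fall from 12 to 60 days was not called without replicate 2 (adjusted p = 0.0612) or with the spike-in scale (0.348). A second Fgf2 probe was not above background on any array.

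Fgf7, the keratinocyte growth factor made by mesenchyme for epithelial Fgfr2, was above background at 5 days alone, at -1.97, -2.06 and -3.49. Against the lowest signals that count as above background, its signal was at least 2.86-fold lower at 12 days (adjusted p = 0.0057) and at least 4.31-fold lower at 60 days (0.0012). The call at 12 days was lost without replicate 1 (adjusted p = 0.074) or replicate 2 (0.127). Fgf21, a metabolic hormone of the liver that needs beta-klotho, stood at -1.82, -1.39 and -1.23 at 5 days, at -3.25, -3.64 and -3.04 at 12 days and at -4.92, -4.08 and -3.90 at 60 days. The ages did not overlap, and Fgf21 fell by 1.83 ± 0.37 from 5 to 12 days (adjusted p = 0.00795) and by 2.82 ± 0.37 from 5 to 60 days (0.000139). The first of these calls was lost without replicate 2 (adjusted p = 0.158) or 3 (0.0584) and with normexp, where the difference was -0.47 (0.69). The difference of -0.99 from 12 to 60 days was called with the slide as a block (0.0353) and not without it (0.076).

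Fgf22 differed by -0.53 ± 0.39 at most and was not called in any comparison. Fgf9, a ligand that supports Sertoli cell fate in the fetal gonad, was not above background on any array, with levels from -6.81 to -3.73. The same held for Fgf1, Fgf3, Fgf4, Fgf8, Fgf10, Fgf16, Fgf20 and the gene named Fgf15 on the array (now Fgf19). Fgf5 and Fgf23 were above background on 1 array each, at 60 days, and Fgf6 and Fgf17 on 2 arrays of different ages. For these genes the arrays set an upper limit and no order.

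The intracellular FGF homologues, which bind sodium channels and microtubules and not the FGF receptors, were measured for 2 of 4 genes. Fgf12 was not above background on any array at 60 days. Its signal there was at least 2.93-fold lower than at 12 days (limma adjusted p = 0.00408, but 0.0669 without replicate 2 and 0.343 on the spike-in scale) and at least 3.92-fold lower than at 5 days (0.000882). Fgf13 was 1.57 ± 0.47 higher at 12 than at 5 days (adjusted p = 0.0546, and 0.0303 with the slide as a block) and -1.32 ± 0.47 apart from 12 to 60 days (0.0649, and 0.0369 with the block). Fgf11 and Fgf14 were not above background on any array.

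**Figure D3:**
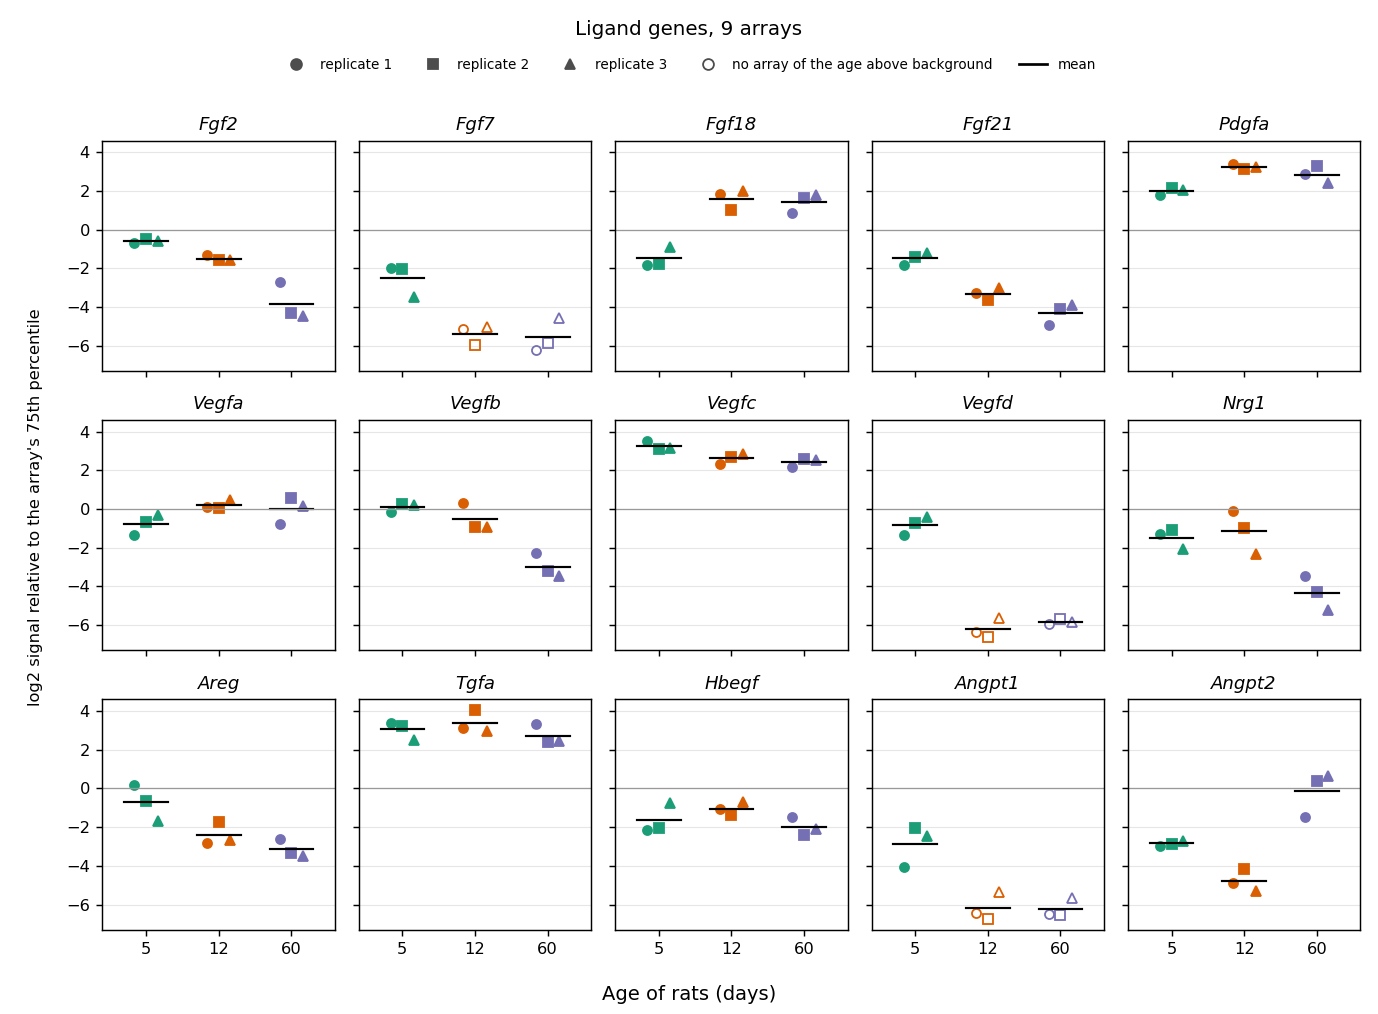
Levels of 15 ligand genes on each of the 9 arrays; the vertical axis is the log2 signal relative to the array's 75th percentile, colours mark ages, symbols mark replicates, lines mark means of 3 arrays, and open symbols mark ages with no array above background. Fgf18 is lowest at 5 days, Angpt2 is highest at 60 days, and Vegfd, Fgf7 and Angpt1 are above background at 5 days alone.

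The VEGF receptors did not move as one. Kdr (VEGF receptor 2), the main signalling receptor of endothelial cells, stood at 1.66, 2.23 and 2.42 at 5 days, at 2.97, 3.46 and 3.83 at 12 days and at 1.14, -0.74 and -0.19 at 60 days. The 12-day arrays were the highest and the 60-day arrays the lowest, without overlap. Kdr fell by 3.35 ± 0.49 from 12 to 60 days (limma adjusted p = 0.000527) and by 2.03 ± 0.49 from 5 to 60 days (0.00725), while the difference of 1.32 ± 0.49 from 5 to 12 days was not called (0.118). The fall from 5 to 60 days was -0.51, -2.97 and -2.60 on slides 1, 2 and 3, and its call was lost without replicate 2 (adjusted p = 0.119) or 3 (0.0788).

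Flt1 (VEGF receptor 1), which also exists as a soluble trap of VEGF-A, stood at -2.55, -2.41 and -3.02 at 5 days, at -3.25, -2.68 and -5.61 at 12 days and at -5.59, -6.69 and -6.45 at 60 days. The 12-day array of replicate 3 lay within the 60-day arrays, of which none was above background. Flt1 was at least 3.88-fold lower at 60 than at 5 days (adjusted p = 0.00141) and at least 1.70-fold lower at 60 than at 12 days (0.0211). The second call was lost without replicate 1 (adjusted p = 0.117) or 2 (0.233), with quantile normalization (0.124) and with the spike-in scale (0.316).

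Flt4 (VEGF receptor 3), the receptor of VEGF-C and VEGF-D on lymphatic vessels, was the 1 receptor called higher, through a filter that favoured it. It was not above background at 5 days, at -5.85, -6.27 and -5.68, and stood at -3.78, -4.12 and -3.83 at 12 days and at -3.84, -3.68 and -3.84 at 60 days. Its signal was at least 1.07-fold higher at 12 days (adjusted p = 0.00154) and at least 1.17-fold higher at 60 days (0.000246) than at 5 days, so the size rests on levels below the limit. The 12-day call was lost without replicate 2 (adjusted p = 0.0542), and both calls were lost with the spike-in scale (0.504 and 0.153). With normexp on the 6 arrays of replicates 1 and 3 the differences were 0.46 (0.743) and 0.0024 (0.997).

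Of 12 endothelial markers, 7 passed the filter, and Pecam1, Tie1, Robo4, Plvap and Sox17 did not. From 5 to 12 days 4 of the 7 fell and 0 rose, from 12 to 60 days 1 rose and 1 fell, and from 5 to 60 days 1 rose and 3 fell. Their summed level ran from 2.79 to 3.17 at 5 days, from 1.06 to 1.68 at 12 days and from 1.44 to 2.27 at 60 days, so that it was lowest at the age where Kdr was highest. Emcn and Cldn5 were not above background at 12 days, nor Cdh5 at 60 days, and the part of these cells in the receptor values was not tested.

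Among the VEGF ligands, Vegfa and Vegfc were not called in any comparison. Vegfa, the main angiogenic ligand of Flt1 and Kdr, stood at -1.32, -0.65 and -0.30 at 5 days, at 0.10, 0.07 and 0.44 at 12 days and at -0.78, 0.59 and 0.17 at 60 days. Its differences were 0.96 ± 0.42 from 5 to 12 days (limma adjusted p = 0.19), -0.21 ± 0.42 from 12 to 60 days (0.769) and 0.75 ± 0.42 from 5 to 60 days (0.194). The last was called with array weights (1.00, adjusted p = 0.0255) and without the 60-day array of replicate 1 (1.14, 0.0495). Vegfc, a ligand of Flt4, stood at 3.50, 3.08 and 3.15 at 5 days, at 2.35, 2.67 and 2.84 at 12 days and at 2.18, 2.58 and 2.53 at 60 days. The 5-day arrays were highest, and the difference of -0.82 ± 0.31 from 5 to 60 days was not called (adjusted p = 0.0633), and was with the slide as a block (0.0477).

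Vegfb, a ligand of Flt1 that was chosen for full description after its values were seen, stood at -0.14, 0.24 and 0.22 at 5 days, at 0.33, -0.91 and -0.91 at 12 days and at -2.30, -3.19 and -3.46 at 60 days. The 60-day arrays lay below all others. Vegfb fell by 2.49 ± 0.44 from 12 to 60 days (adjusted p = 0.00178, and 0.277 on the spike-in scale) and by 3.09 ± 0.44 from 5 to 60 days (0.000244). Its second probe gave -2.59 and -3.40 for the same comparisons (adjusted p = 0.00418 and 0.000424). The second Vegfa probe, which shares the 18-base run with the first Vegfb probe, differed by 0.52 from 12 to 60 days (adjusted p = 0.574) and by 1.41 from 5 to 60 days (0.0887).

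Vegfd, named Figf on the array and a ligand of Kdr and Flt4, was above background at 5 days alone. It stood at -1.34, -0.70 and -0.43 at 5 days and was not above background on any array at 12 days (-6.34, -6.61 and -5.62) or 60 days (-5.94, -5.67 and -5.84). The signal was at least 9.21-fold lower at 12 days (limma adjusted p = 2.35e-05) and at least 13.9-fold lower at 60 days (3.15e-06). Pgf, placental growth factor, another ligand of Flt1, differed by -0.94 ± 0.40 from 5 to 60 days without a call (adjusted p = 0.0897).

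The ErbB receptors measured both fell. Egfr, the receptor of EGF, TGF-alpha, amphiregulin and related ligands, stood at -0.32, 0.99 and 1.49 at 5 days, at -1.17, -1.67 and -1.42 at 12 days and at -3.23, -3.74 and -4.98 at 60 days. Each age lay below the one before. Egfr fell by 2.14 ± 0.54 from 5 to 12 days (limma adjusted p = 0.0259), by 2.57 ± 0.54 from 12 to 60 days (0.00539) and by 4.71 ± 0.54 from 5 to 60 days (5.73e-05), a 26.1-fold lower signal. A second probe gave -2.05, -1.27 and -3.32 (adjusted p = 0.0184, 0.0818 and 0.000299). The fall from 5 to 12 days was not called without replicate 2 (adjusted p = 0.26) or 3 (0.112), nor without 5 single arrays (up to 0.0911), and that from 12 to 60 days was not called with the spike-in scale (0.242).

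Erbb2, the partner receptor that binds no ligand of its own, stood at -0.70, -0.62 and 0.89 at 5 days, at -0.83, -1.21 and -0.10 at 12 days and at -2.33, -2.70 and -2.07 at 60 days. The younger ages overlapped. Erbb2 fell by 2.23 ± 0.48 from 5 to 60 days (adjusted p = 0.00382) and by 1.66 ± 0.48 from 12 to 60 days (0.0267). The second call was lost without replicate 1 (adjusted p = 0.116) or 2 (0.116), without 4 single arrays (up to 0.098) and with the spike-in scale (0.669). Erbb3 and Erbb4, the receptors that bind neuregulins, were not above background on any array, with levels from -7.07 to -5.25 and from -6.38 to -5.10.

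Of the EGF family ligands, Nrg1 and Areg fell. Nrg1, a neuregulin, stood at -1.29, -1.11 and -2.06 at 5 days, at -0.09, -0.97 and -2.33 at 12 days and at -3.48, -4.27 and -5.24 at 60 days. The younger ages overlapped and the 60-day arrays lay below them. Nrg1 fell by 3.20 ± 0.60 from 12 to 60 days (limma adjusted p = 0.00274, and 0.0656 on the spike-in scale) and by 2.84 ± 0.60 from 5 to 60 days (0.0036, and 0.0571 without replicate 2). Its second probe, which lies in another place of the same gene, was above background on 3 arrays at 5 and at 12 days and on none at 60 days.

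Areg, amphiregulin, an Egfr ligand known to respond to gonadotropins in the ovary, stood at 0.16, -0.65 and -1.68 at 5 days, at -2.84, -1.74 and -2.67 at 12 days and at -2.60, -3.33 and -3.50 at 60 days. The 5-day arrays were the highest and spread over a wide range. Areg fell by 2.42 ± 0.50 from 5 to 60 days (adjusted p = 0.00316). From 5 to 12 days the difference of -1.69 ± 0.50 was not called (adjusted p = 0.0522), and was with the slide as a block (0.0237).

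The other EGF-like ligands did not pass the threshold in any comparison. Tgfa, TGF-alpha, stood at 3.39, 3.23 and 2.52 at 5 days, at 3.14, 4.06 and 2.95 at 12 days and at 3.33, 2.37 and 2.45 at 60 days. Hbegf, the heparin-binding ligand of Egfr and Erbb4, stood at -2.16, -2.02 and -0.78, at -1.08, -1.35 and -0.68 and at -1.49, -2.41 and -2.09. Egf itself was above background on 1, 2 and 2 arrays of the 3 ages, at -3.20, -4.15 and -4.24, at -3.60, -3.69 and -4.49 and at -3.91, -3.62 and -4.28. The arrays of all ages overlapped for Tgfa and Egf. The largest differences were -0.66 ± 0.43 for Tgfa and -0.96 ± 0.44 for Hbegf, both from 12 to 60 days (adjusted p = 0.296 and 0.138), and -0.08 ± 0.40 for Egf. Nrg2 differed by 0.46 ± 0.49 at most. Btc and Ereg were not above background on any array, with levels from -7.02 to -4.98 and from -7.00 to -4.64.

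The angiopoietins, ligands of the vascular receptor Tek, changed in different directions. Angpt2, which antagonises or weakly activates Tek depending on the setting, stood at -2.98, -2.85 and -2.70 at 5 days, at -4.89, -4.18 and -5.31 at 12 days and at -1.49, 0.37 and 0.66 at 60 days. The ages did not overlap, and 12 days, where 1 of 3 arrays was above background, was the lowest. Angpt2 rose by 4.64 ± 0.54 from 12 to 60 days (limma adjusted p = 0.000126) and by 2.69 ± 0.54 from 5 to 60 days (0.00252), a 24.9-fold and a 6.45-fold higher signal. The second probe was above background on 3 arrays at 60 days and on none at 5 or 12 days, so it gives no size of the rise. Angpt2 was the largest rise among the members from 12 to 60 days, through a filter that favoured a low level at 12 days. The 24.9-fold size rests in part on 12-day levels that were not above background.

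The Angpt2 fall of 1.95 ± 0.54 from 5 to 12 days (limma adjusted p = 0.0382) was lost under 12 of 23 alternatives, among them without replicate 1, 2 or 3 (0.0585, 0.136 and 0.212). Angpt1, the Tek agonist made by mesenchymal and perivascular cells, was above background on 2 arrays, both at 5 days, where it stood at -4.07, -2.06 and -2.48. At 12 days it stood at -6.45, -6.76 and -5.36 and at 60 days at -6.50, -6.54 and -5.66. Its signal was at least 2.23-fold lower at 12 days (adjusted p = 0.00299, and 0.0803 without replicate 2) and at least 3.35-fold lower at 60 days (0.000757). With normexp on the arrays of replicates 1 and 3, the Angpt1 differences from 5 days were -0.47 (0.736) and -0.68 (0.233). Tek and Angpt4 were not above background on any array, Tek with levels from -6.96 to -5.00. Of the HGF pair, the ligand Hgf was above background on 1 array, at 5 days, and its receptor Met on none, with levels from -7.01 to -3.32 and from -6.95 to -4.96.

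Of the genes caught by name that are neither ligand nor receptor of these families, 5 of 7 passed the filter. Angptl2, a secreted angiopoietin-like protein of mesenchymal and fat tissue, stood at 2.17, 1.83 and 1.63 at 5 days, at 0.51, 1.04 and 0.63 at 12 days and at -1.22, -3.81 and -3.73 at 60 days. The ages did not overlap. Angptl2 fell by 3.64 ± 0.60 from 12 to 60 days (limma adjusted p = 0.00123) and by 4.79 ± 0.60 from 5 to 60 days (0.000108). Angptl4, an inhibitor of lipoprotein lipase, stood at -0.84, -0.53 and -0.08, at -2.41, -2.54 and -2.15 and at -1.49, -0.49 and -1.08 at the 3 ages, and was lowest at 12 days. It fell by 1.89 ± 0.36 from 5 to 12 days (adjusted p = 0.00597, and 0.0941 and 0.0666 without replicates 2 and 3) and rose by 1.35 ± 0.36 from 12 to 60 days (0.0186, and 0.246 and 0.0734 without them). The call of that rise was lost under 7 of 24 alternatives, among them normexp (adjusted p = 0.428) and the spike-in scale (0.057). Angptl6, Fgfr1op2 and Pdgfrl were not called, with differences no larger than -0.82, 0.32 and -0.61. Flt3 was not above background on any array.

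**Figure D4:**
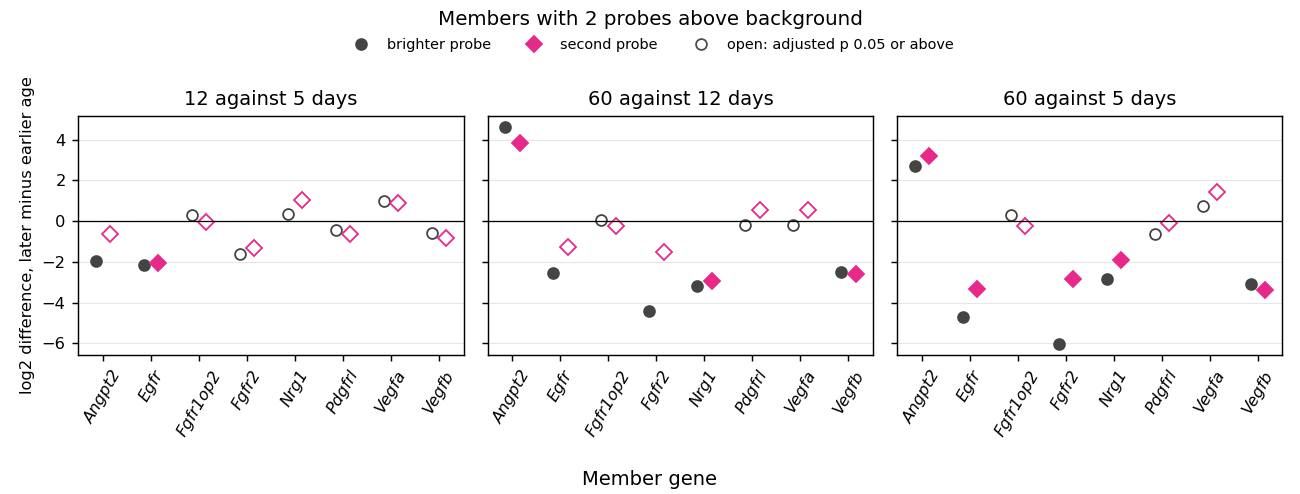
Differences between ages for the 8 members with 2 probes above background; circles are the brighter and diamonds the second probe of a gene, filled symbols have an adjusted p under 0.05 over all probes tested, and the vertical axis is the log2 difference (later minus earlier age). Both probes of Angpt2, Egfr, Fgfr2, Nrg1 and Vegfb are filled on the same side of 0 in the comparison of 60 with 5 days, but the second probe was below background on all arrays at 5 and 12 days for Angpt2 and at 60 days for Fgfr2 and Nrg1.

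Promoters of 52 member genes were available from RefSeq (GRCr8 build, 55 windows of 250 bases before to 50 after the start). The median share of G and C in these windows was 62.0%, against 51.7% over 33469 windows of all genes. Since all cultures received FSH, which acts through cyclic AMP, both strands were searched for the cyclic AMP response element TGACGTCA, and also for the GC box GGGCGG and the TATA box TATAAA, which do not overlap it in letters. The response element was found in 3.6% of the member windows (2 of 55) and in 1.8% of all windows. The GC box was found in 63.6% and 33.1%, and the TATA box in 16.4% and 14.2%. Of the 37 members tested 19 fell from 5 to 60 days, Flt1 through a filter that favoured its fall. Both genes with the response element, Areg and Flt1, were among these 19. Their 250 bases before the start are shown for that reason, with the 3 motifs in capitals. Without a culture lacking hormone, these data do not bear on whether either site is used.
Areg, chr14:17265642-17265891, minus strand: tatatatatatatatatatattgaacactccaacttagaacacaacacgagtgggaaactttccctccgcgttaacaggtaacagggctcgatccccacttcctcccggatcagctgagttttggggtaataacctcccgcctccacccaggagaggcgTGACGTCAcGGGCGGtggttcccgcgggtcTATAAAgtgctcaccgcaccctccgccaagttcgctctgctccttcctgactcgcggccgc
Flt1, chr12:12333180-12333429, plus strand: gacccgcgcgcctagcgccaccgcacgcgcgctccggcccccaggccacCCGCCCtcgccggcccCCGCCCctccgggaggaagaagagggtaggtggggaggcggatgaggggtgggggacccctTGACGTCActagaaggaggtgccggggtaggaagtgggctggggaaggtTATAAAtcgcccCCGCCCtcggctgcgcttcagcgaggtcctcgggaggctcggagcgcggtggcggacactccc

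Other genes of these pathways were counted in 6 lists, which were chosen with earlier results of these data known. Their shares, set beside those of all genes, are therefore not a test. Of 18 feedback and response genes tested, 2 rose and 3 fell from 5 to 12 days, 0 rose and 10 fell from 12 to 60 days, and 0 rose and 12 fell from 5 to 60 days, with a median difference of -0.51, -1.17 and -1.32. The genes called were 27.8%, 55.6% and 66.7% of the list, beside 12.5%, 25.3% and 35.4% of all genes. Spry1, an inhibitor induced by FGF signals, fell by 4.39 ± 0.32 from 5 to 60 days (limma adjusted p = 2.66e-06) and by 2.89 ± 0.32 from 12 to 60 days (9.04e-05). The immediate early gene Fos fell by 4.62 ± 0.47 from 5 to 60 days (2.31e-05) and by 2.43 ± 0.47 from 5 to 12 days (0.00619), and Egr1 by 2.21 ± 0.37 from 5 to 12 days (0.00298). Myc fell by 2.64 ± 0.37 from 12 to 60 days (0.00039), after a rise of 1.26 ± 0.37 from 5 to 12 days (0.0476). Dusp4, a MAP kinase phosphatase, was at least 2.53-fold higher at 12 than at 5 days (0.0108).

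Of 31 genes of the shared relay below the receptors, 1 rose and 0 fell from 5 to 12 days, 2 rose and 0 fell from 12 to 60 days, and 7 rose and 2 fell from 5 to 60 days, with a median of 0.20, -0.04 and 0.20. These are 3.23%, 6.45% and 29.0% of the list, below the shares of all genes. Plcg2, a phospholipase C gamma of blood cells, was at least 5.87-fold higher at 60 than at 5 days (limma adjusted p = 0.000352), and Akt2, a kinase below PI3 kinase, rose by 2.53 ± 0.61 (0.00754). From 12 to 60 days Akt2 rose by 2.25 ± 0.61 (0.0196) and Plcg2 by 1.99 ± 0.56 (0.0227). The adaptor Gab1 rose by 1.38 ± 0.39 from 5 to 12 days (0.04), and the PI3 kinase subunit Pik3r1 and the kinase gene Map2k1 fell from 5 to 60 days, by 1.85 ± 0.59 and 1.28 ± 0.41 (0.032 and 0.0321).

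Of 19 FGF cofactors and heparan sulphate genes tested, 0 rose and 4 fell from 5 to 12 days, and 3 rose and 7 fell in each of the other comparisons (median -0.50, -0.81 and -0.77). The genes called were 21.1%, 52.6% and 52.6% of the list, beside 12.5%, 25.3% and 35.4% of all genes. The glypican Gpc3, a growth-limiting proteoglycan of immature tissue, fell by 3.01 ± 0.37 from 5 to 12 days (limma adjusted p = 0.00046), by 3.96 ± 0.37 from 12 to 60 days (3.1e-05) and by 6.97 ± 0.37 from 5 to 60 days (5.86e-07). Sulf1, which trims sulphates from heparan chains, fell by 2.45 ± 0.46 from 5 to 12 days (0.0052). The syndecan Sdc1 fell by 3.82 ± 0.54 from 12 to 60 days (0.000468) and by 4.52 ± 0.54 from 5 to 60 days (7.66e-05). Other members rose: Gpc2 by 2.13 ± 0.32 from 12 to 60 days (0.000651), Sulf2 at least 1.56-fold over that interval (0.0185), and Sdc4 and Gpc4 by 1.65 ± 0.53 and 1.64 ± 0.48 from 5 to 60 days (0.0322 and 0.0215).

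Of 8 VEGF and angiopoietin co-receptors and hypoxia genes tested, 2 rose and 1 fell from 5 to 12 days, 0 rose and 1 fell from 12 to 60 days, and 2 rose and 2 fell from 5 to 60 days (median -0.12, -0.25 and -0.18). Called genes made up 37.5%, 12.5% and 50% of this short list, beside 12.5%, 25.3% and 35.4% of all genes. Nrp1, a co-receptor of VEGF-A, fell by 2.12 ± 0.65 from 12 to 60 days (limma adjusted p = 0.0346) and by 4.30 ± 0.65 from 5 to 60 days (0.000386). Ptprb, the phosphatase that restrains Tek, rose by 2.65 ± 0.39 from 5 to 12 days (0.00132) and by 3.50 ± 0.39 from 5 to 60 days (4.4e-05). The hypoxia factor Epas1 rose by 2.41 ± 0.50 from 5 to 12 days (0.00954) and by 1.68 ± 0.50 from 5 to 60 days (0.023), and the semaphorin receptor Plxnd1 fell by 2.70 ± 0.40 (0.0014) and 3.15 ± 0.40 (0.000112).

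Of 11 genes of EGF ligand shedding and ErbB control, 0 rose and 0 fell from 5 to 12 days by limma (0 higher and 1 lower at an unadjusted p under 0.05), 0 rose and 2 fell from 12 to 60 days, and 0 rose and 4 fell from 5 to 60 days (median -0.35, -0.33 and -0.21). These are 0%, 18.2% and 36.4% of the list, and the last is near the 35.4% of all genes. Rhbdf1, which carries the shedding protease to the surface, fell by 3.97 ± 0.48 from 12 to 60 days (limma adjusted p = 0.000159) and by 4.86 ± 0.48 from 5 to 60 days (1.91e-05). Errfi1, an inhibitor of Egfr, fell by 1.09 ± 0.34 (0.0363) and 1.83 ± 0.34 (0.00148). Of 5 genes of HGF activation, 0 were called by limma from 5 to 12 days (1 higher and 1 lower at an unadjusted p under 0.05) and 1 rose in each of the other comparisons (median -0.56, 1.38 and 0.32), Hgfac at least 1.27-fold from 12 to 60 days (0.0454) and St14 by 2.96 ± 0.65 from 5 to 60 days (0.00445). That is 0%, 20% and 20% of these 5, below the shares of all genes. Over the 6 lists, 13, 26 and 40 of 92 partners were called in the comparisons of 12 with 5, 60 with 12 and 60 with 5 days, which is 14.1%, 28.3% and 43.5%. The first and second share are near the 12.5% and 25.3% of all genes, and the third stands beside 35.4%. Without replicate 2 the counts were 3, 12 and 22, without replicate 3 they were 7, 13 and 32, and the first was 22 with the slide as a block.

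The calls of the members from 5 to 12 days changed most with the arrays left out. A fit without a replicate number has fewer arrays per age, so a call lost there is not shown to rest on 1 slide. Without replicate 2, 1 member rose (Fgf18) and 1 fell (Vegfd). Without replicate 3, 2 rose and 4 fell. Without the 60-day array of replicate 1, which is of neither age compared and enters through the shared estimate of the spread, 5 rose and 12 fell. From 5 to 60 days, leaving out a replicate number gave 3 rises and 17 to 19 falls. With normexp background correction, which could be run on the 6 arrays of replicates 1 and 3, the calls from 5 to 60 days were not made for Angpt1, Angpt2, Areg, Fgf7, Flt1, Flt4, Kdr and Nrg1, and the fall of Vegfd from 5 to 12 days had an adjusted p of 0.0956 by limma. The calls from 5 to 12 days of Angpt1, Angpt2, Angptl4, Egfr, Fgf7, Fgf21, Flt4 and Pdgfa were not made with it either. Nor were the calls from 12 to 60 days of Angptl4, Egfr, Erbb2, Fgf2, Fgf12, Flt1 and Nrg1. For these the adjusted p by limma ran from 0.0523 (Nrg1) to 0.428 (Angptl4).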

How the data were processed

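RNA of 9 cultures was hybridised to 1-colour Agilent arrays. Per the file headers, the deposited intensity values are processed signals of Agilent Feature Extraction (9.5.3.1 on a G2505B scanner for replicate 1, 10.5.1.1 on a G2505C scanner for replicates 2 and 3). The deposited log2 table, made by the authors, equalled the log2 signal minus 1 constant per array, close to its 75th percentile, within 0.01 for at least 99.6% of probes.

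Signals were log2 transformed after scaling to the 75th percentile of the array, 254 probes were left out for quality flags, and each gene was read by its brightest probe that passed the filter. Fits used limma 3.58.1 in R 4.3.3, with 1 mean per age, 6 residual and 4.64 prior degrees of freedom. They were tested on data simulated for the comparison of 60 with 12 days, with 200 of 22453 genes changed. Log2 rises of 1, 2 and 3 were called for 0%, 36% and 66% of the genes given them, and log2 falls of 2 for 22%. As 5688 genes were called in the data, these shares need not hold there. A member without a call is not shown to be unchanged. A fold against an age with no array above background is a lower bound, taken against the lowest signals well above background.

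Replicate numbers mark slides. Deviations of arrays with the same number correlated at 0.181 to 0.601, and those of different numbers at no more than 0.0939, so a fit with the slide as a block was an alternative, beside other scales, filters, background corrections and arrays left out.

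Members and lists were chosen with earlier results of these data known. Full values were given for the 8 largest called rises and falls of a comparison and a set of main ligands and receptors, and for partner lists the 2 largest each way. Members below background are given by range or name. The values of 1 member that was not tested are not reported here. RefSeq promoters were matched by symbol.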

Additional observations from a re-analysis of the deposited data

How the results depend on the processing

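With the replicate block, the comparison of 12 with 5 days had 4 rises and 11 falls among members, that of 60 with 12 days 2 and 17, and that of 60 with 5 days 4 and 21, with 26 called by the F-test and 22, 37 and 44 partners called; beyond the gains given beside the genes, the block changed no other call of a member. Leaving out 1 replicate number or array gave 1 to 5 rises and 1 to 12 falls from 5 to 12 days, 1 to 2 and 10 to 15 from 12 to 60 days, 3 to 4 and 17 to 20 from 5 to 60 days, 18 to 25 members by the F-test, and 3 to 15, 12 to 27 and 22 to 41 partners. The spike-in scale gave 0 rises and 13 falls from 5 to 12 days, 1 and 5 from 12 to 60 days, and 11 and 18 partners in the comparisons with 60 days; Pdgfa reversed to -0.044 from 5 to 12 days (adjusted p = 0.971 by limma). Normexp background correction, possible for the 6 arrays of replicates 1 and 3, gave 1 rise and 2 falls, 1 rise and 8 falls, 1 rise from 5 to 60 days, 13 members by the F-test and 7, 14 and 24 partners. Probes well above background on all 9 arrays gave 3 rises and 3 falls from 5 to 12 days, 1 rise and 9 falls from 12 to 60 days, 1 rise and 10 falls from 5 to 60 days, and 14 by the F-test, with fewer genes tested. Array weights gave 5 rises from 5 to 60 days and 20 partners from 5 to 12 days. Apart from the limits the construction of these alternatives sets, the cause was not tested. Of the alternative values of single members, 2802 kept their direction and side of the threshold, 53 passed it, 99 no longer did and 1 reversed. Signal over background limits the 29 members not tested and the 10 tested members that were not above background on 2 arrays of every age.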
